A study of Mus musculus with 18 samples.

Results

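The 10 genes described here encode mucus components and other secreted products of goblet cells, the mucus-secreting cells of the intestinal epithelium. They were chosen by name, from what is known of the cell type and with earlier results of these data in view, so no count over the 10, and no result on Retnlb, is independent of that choice, and are 10 of the 32286 gene features that were counted. Muc2, Fcgbp, Clca1 and Zg16 are proteins of the mucus gel. Tff3, Spink4, Retnlb and Guca2a are small secreted proteins, and Agr2 and Rep15 act inside the cell, in folding and in membrane traffic. They were followed by droplet single-cell RNA-seq in GFP-sorted cells from crypt-enriched ileal epithelium of C57Bl6 mice, 60 to 65 days old, that had received tamoxifen once (70 mg/kg, in corn oil) and were analysed 5 days later. In the Lgr5+ sort, Lgr5-GFP-CreERT2 mice (Lgr5+WT) were compared with Lgr5-GFP-CreERT2/Setdb1lox/lox mice (Lgr5+Setdb1KO), in which Cre removes exon 3 of Setdb1, a histone H3K9 methyltransferase, in cells that express the Lgr5 knock-in. In the lineage-traced sort the same 2 genotypes also carried nTnG, a reporter at the ROSA locus that changes from tdTomato to GFP in cells with active Cre and keeps GFP in their progeny. Among the cells of the Lgr5+ sort that expressed GFP mRNA, the study counts an early goblet cluster, Goblet-I, as a potential lineage-specified progenitor. It ascribes the mature cells of that sort, goblet cells among them, to its gate and to incomplete enrichment of GFP+ cells. The goblet-like cells chosen here were not divided in this way, so not all of them need descend from cells with active Cre. Each of the 4 groups has 2 libraries, described as independent biological replicates, and all 8 come from mice that carried the knock-in, which is silenced at random in part of the crypts, and that received tamoxifen.

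Goblet cells arise from crypt progenitors with low Notch activity, in which Atoh1 sets the secretory fate and Spdef drives maturation. They fold mucins in the endoplasmic reticulum, add sugar chains to them in the Golgi, and release them from stored granules to form the mucus that keeps bacteria away from the epithelium. Cytokines of the type 2 immune response, which act through Stat6, raise the number of goblet cells and the expression of Retnlb.

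The RefSeq promoter table used here (GRCm38.p6) held 4 of the 10 genes, all on the plus strand. Because these genes were high in the same cells, the 250 bases before each start site are shown, with 3 searched motifs in capitals. These were CAGCTG, an E-box of the kind bound by factors such as Atoh1, TGTTTAC, a forkhead motif, and TATAAA, the letters of a TATA box.
Muc2, chr7:141690090-141690339: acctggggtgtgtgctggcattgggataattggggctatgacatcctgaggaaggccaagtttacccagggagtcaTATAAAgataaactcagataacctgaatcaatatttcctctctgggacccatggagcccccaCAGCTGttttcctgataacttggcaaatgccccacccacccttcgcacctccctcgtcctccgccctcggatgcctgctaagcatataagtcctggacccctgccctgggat
Fcgbp, chr7:28070986-28071235: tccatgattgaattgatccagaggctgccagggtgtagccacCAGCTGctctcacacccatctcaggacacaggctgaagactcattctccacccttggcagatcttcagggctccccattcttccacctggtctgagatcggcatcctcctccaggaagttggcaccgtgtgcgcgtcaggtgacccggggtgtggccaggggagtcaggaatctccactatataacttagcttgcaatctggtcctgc
Guca2a, chr4:119637482-119637731: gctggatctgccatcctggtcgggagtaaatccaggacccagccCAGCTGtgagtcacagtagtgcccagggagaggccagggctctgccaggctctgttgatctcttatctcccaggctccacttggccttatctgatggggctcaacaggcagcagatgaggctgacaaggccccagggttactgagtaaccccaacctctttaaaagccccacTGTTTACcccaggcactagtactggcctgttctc
Agr2, chr12:35992675-35992924: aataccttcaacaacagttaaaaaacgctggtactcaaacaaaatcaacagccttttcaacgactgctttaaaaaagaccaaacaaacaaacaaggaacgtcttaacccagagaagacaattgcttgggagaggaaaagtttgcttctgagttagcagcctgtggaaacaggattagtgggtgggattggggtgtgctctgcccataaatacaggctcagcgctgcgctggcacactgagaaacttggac
CAGCTG was present in 3 of the 4, starting 112 bases before the start site of Muc2, 208 before that of Fcgbp and 206 before that of Guca2a, and 16.3% of the 32851 promoters in the table held it on either strand within 250 bases before and 50 bases after the start. TGTTTAC was present 34 bases before the start site of Guca2a (3.6% of promoters) and TATAAA 174 bases before that of Muc2 (13.6% of promoters). Both were on the strand shown, and none of the motifs overlapped another. The motifs were matched by letters only, so no use as a TATA box is shown. None of the 3 motifs was present in these letters in the Agr2 window. In GENCODE M21 (GRCm38) the genes lie at chr7:141690340-141754693 (Muc2), chr7:28071236-28120862 (Fcgbp), chr3:145003817-145032776 (Clca1) and chr7:127050156-127087328 (Zg16) for the mucus gel. Those of the small secreted proteins are at chr17:31125306-31129646 (Tff3), chr4:40920052-40931395 (Spink4), chr16:48816856-48818892 (Retnlb) and chr4:119637704-119639471 (Guca2a). Agr2 lies at chr12:35992907-36004087 and Rep15 at chr6:147032584-147034245. The RefSeq start sites of Guca2a and Agr2 lie inside the GENCODE genes. No other annotated gene overlaps the 10, except that Gm22747 and Gm44939 lie within Zg16 on the other strand.

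Goblet-like cells were chosen without the 10 genes, by 13 other goblet markers (among them Tpsg1, Klk1, Ern2 and Capn9). A cell was called goblet-like where it held at least 3 UMIs (unique molecular identifiers, each marking a captured RNA molecule) of these markers, at a share of its RNA at least 3 times that in empty droplets, and did not pass the same kind of call for another differentiated class. This gave 6366 goblet-like cells among 52015 kept cells, 517 to 1874 per library in the Lgr5+ sort and 246 to 871 in the lineage-traced sort. The call is a limit on a score: 876 of these cells lay near it and 1339 cells lay just outside. Another 676 cells with goblet markers and markers of a second class were left out, and 155 of them, with enteroendocrine markers, came from lineage-traced Setdb1KO replicate 2. In the lineage-traced sort the cells with goblet and enteroendocrine markers held 4329.8 to 6729 CPM of Muc2 and 1205 to 3160.2 CPM of Sct, the secretin gene, but 44.4 to 991 CPM of Chgb, a granin of enteroendocrine granules, against 4646 to 6654 CPM in enteroendocrine-like cells. Whether they are doublets was not tested. The median depth of goblet-like cells was 4278 to 8405 UMIs in the Lgr5+ sort and 1753 to 2900 in the lineage-traced sort.

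The labels call every library stem cells, but goblet-like cells made up 16.7, 14, 17.9 and 16.4% of the kept cells of the Lgr5+ sort (Lgr5+WT replicates 1 and 2, then Lgr5+Setdb1KO replicates 1 and 2) and 10.6, 6.34, 7.7 and 8.51% in the lineage-traced sort in the same order. The means were 17.1 ± 1.03% in Lgr5+Setdb1KO and 15.3 ± 1.94% in Lgr5+WT (SD, n = 2; exact two-sided permutation p = 0.67), and 8.11 ± 0.568% against 8.47 ± 3.01% in the lineage-traced sort (exact two-sided permutation p = 1). With 2 libraries a group this test cannot go below 0.33. In lineage-traced Setdb1KO the study reports more Mucin/GFP double-positive cells by staining and a moderate increase of goblet cells among its clusters, most in Goblet-I. Its stained cells and clusters were defined otherwise than the goblet-like cells here, so the shares are not like for like. Setdb1 stood at 11.3, 9.93, 5.32 and 6.21 CPM (counts of UMIs per 1000000 UMIs of the cells summed) in the Lgr5+ sort and 6.11, 4.21, 10.4 and 7.85 CPM in the lineage-traced sort, in the same order of libraries. Counting at the 3′ end does not cover the deleted exon, so these values do not check the deletion. They were lower in both Setdb1KO libraries of the Lgr5+ sort and higher in both of the lineage-traced sort. The study itself tested the loss of exon 3 by PCR, in sorted GFP+ cells of the mice with and without nTnG, and reports the deletion in both. Some libraries stood apart: in goblet-like cells the 10 Paneth markers summed to 88455 and 141567 CPM in lineage-traced WT against 17916 and 25185 CPM in lineage-traced Setdb1KO, where empty droplets held 35.3 and 38% against 15.4 and 23.5% of these markers. Any 2 of the libraries shared 3 to 34 barcodes of kept cells and at most 1 barcode of goblet-like cells.

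The 10 genes took up a large part of the RNA of goblet-like cells. They made up 14 to 17.5% of the UMIs of goblet-like cells in the Lgr5+ sort and 10.3 to 13% in the lineage-traced sort, against 2.42 to 3.23% of the UMIs of all kept cells. Of all their UMIs in kept cells, 81.3 to 92.9% lay in goblet-like cells in the Lgr5+ sort and 31.1 to 45.6% in the lineage-traced sort. Empty droplets hold RNA that is free in the suspension and enters every droplet, and the 10 genes were 2.19 to 3.01% of its UMIs.

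Among the proteins of the mucus gel, Zg16 had the highest CPM and Clca1 the lowest in every library. UMIs count molecules by their 3′ end, so CPM carries no term for transcript length. With 2 libraries a group, genotypes that do not overlap reach only 0.33 in the exact permutation test above. The share of all genes that do not overlap was not counted. Muc2, the gel-forming mucin that makes up the network of intestinal mucus, stood at 4959.6 and 3907 CPM in the Lgr5+WT libraries and 4378 and 4389 CPM in the Lgr5+Setdb1KO libraries, and at 8390.2 and 6225 CPM in the lineage-traced WT libraries and 6248 and 4998 CPM in the lineage-traced Setdb1KO libraries. The genotypes overlapped in both sorts. The class with the next highest mean was Paneth-like in the Lgr5+ sort, where goblet-like cells were 7.83 to 12.8 times higher in single libraries, and enteroendocrine-like in the lineage-traced sort (5.4 to 10.4 times). Zg16, a lectin-like protein that binds the cell walls of Gram-positive bacteria, stood at 72973 and 45906 CPM in the Lgr5+WT libraries and 67617 and 64375 CPM in the Lgr5+Setdb1KO libraries, and at 21289 and 31428 CPM in the lineage-traced WT libraries and 24858 and 26215 CPM in the lineage-traced Setdb1KO libraries. Lgr5+WT replicate 2 was the lowest of its sort, and the genotypes overlapped in both sorts. Its second class was tuft-like in the Lgr5+ sort, at a mean of 459 ± 313 CPM, and enteroendocrine-like in the lineage-traced sort, at 5027 ± 1559 CPM (SD, n = 4 libraries). Fcgbp, a large protein that binds to the mucin network, stood at 9497 and 8648 CPM in the Lgr5+WT libraries and 12914 and 10458 CPM in the Lgr5+Setdb1KO libraries, and at 5126 and 4267 CPM in the lineage-traced WT libraries and 5482 and 4891 CPM in the lineage-traced Setdb1KO libraries. Both Lgr5+Setdb1KO libraries lay above both Lgr5+WT libraries, while the lineage-traced genotypes overlapped. Clca1, a secreted protease that cleaves Muc2, ranged from 2098 to 2855 CPM in the Lgr5+ sort and from 1279 to 1944 CPM in the lineage-traced sort. All 4 were highest in goblet-like cells in every library. In the Lgr5+ sort Fcgbp, Clca1 and Zg16 were at least 36.9 times their next class in every library, and in the lineage-traced sort at least 3.23 times.

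The small secreted proteins were less alike. Spink4, a Kazal-type serine protease inhibitor, stood at 34448 and 37958 CPM in the Lgr5+WT libraries and 37312 and 36794 CPM in the Lgr5+Setdb1KO libraries, and at 58767 and 40731 CPM in the lineage-traced WT libraries and 53376 and 57632 CPM in the lineage-traced Setdb1KO libraries. The genotypes overlapped, and another class was high as well. Paneth-like cells held 9134 to 31230.2 CPM in the Lgr5+ sort, and goblet-like cells were 1.22 to 4.03 times higher. Tff3, a trefoil peptide that protects and repairs the mucosa, stood at 18708 and 16196 CPM in the Lgr5+WT libraries and 21136 and 18583 CPM in the Lgr5+Setdb1KO libraries, and at 8400.4 and 6406 CPM in the lineage-traced WT libraries and 8851 and 8048 CPM in the lineage-traced Setdb1KO libraries. The genotypes overlapped in both sorts. Guca2a, which encodes guanylin, the peptide that activates guanylate cyclase C on neighbouring enterocytes, ranged from 3441 to 3997 CPM in the Lgr5+ sort and from 1017 to 1552 CPM in the lineage-traced sort. Spink4, Tff3 and Guca2a were highest in goblet-like cells in every library of both sorts. Retnlb, the antibacterial resistin-like molecule beta, stood at 5.41 and 4.43 CPM in the Lgr5+WT libraries and 8.29 and 14 CPM in the Lgr5+Setdb1KO libraries, and at 93.3 and 114 CPM in the lineage-traced WT libraries and 892 and 957 CPM in the lineage-traced Setdb1KO libraries. The genotypes did not overlap in either sort. It was the lowest of the 10 in every library of the Lgr5+ sort and in both lineage-traced WT libraries, but in lineage-traced Setdb1KO it stood above Rep15. In the Lgr5+ sort goblet-like cells were highest in 2 of 4 libraries, and Paneth-like cells held up to 22.1 CPM in a library. The Paneth-like values rest on 7 to 222 cells per library.

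Agr2, a disulfide isomerase of the endoplasmic reticulum that the cell needs to make Muc2, stood at 26041 and 21332 CPM in the Lgr5+WT libraries and 24920.2 and 19703 CPM in the Lgr5+Setdb1KO libraries, and at 12886 and 11242 CPM in the lineage-traced WT libraries and 16902 and 24586 CPM in the lineage-traced Setdb1KO libraries. The genotypes overlapped in the Lgr5+ sort and not in the lineage-traced sort, where Setdb1KO replicate 2 was the highest. Rep15, an effector of the small GTPase Rab15, was low, at 464 to 609 CPM in the Lgr5+ sort and 180.1 to 204 CPM in the lineage-traced sort. Both were highest in goblet-like cells in all 8 libraries, Agr2 by 20.8 to 62.6 times and Rep15 by 9.11 to 24.1 times in the Lgr5+ sort.

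**Figure D1:**
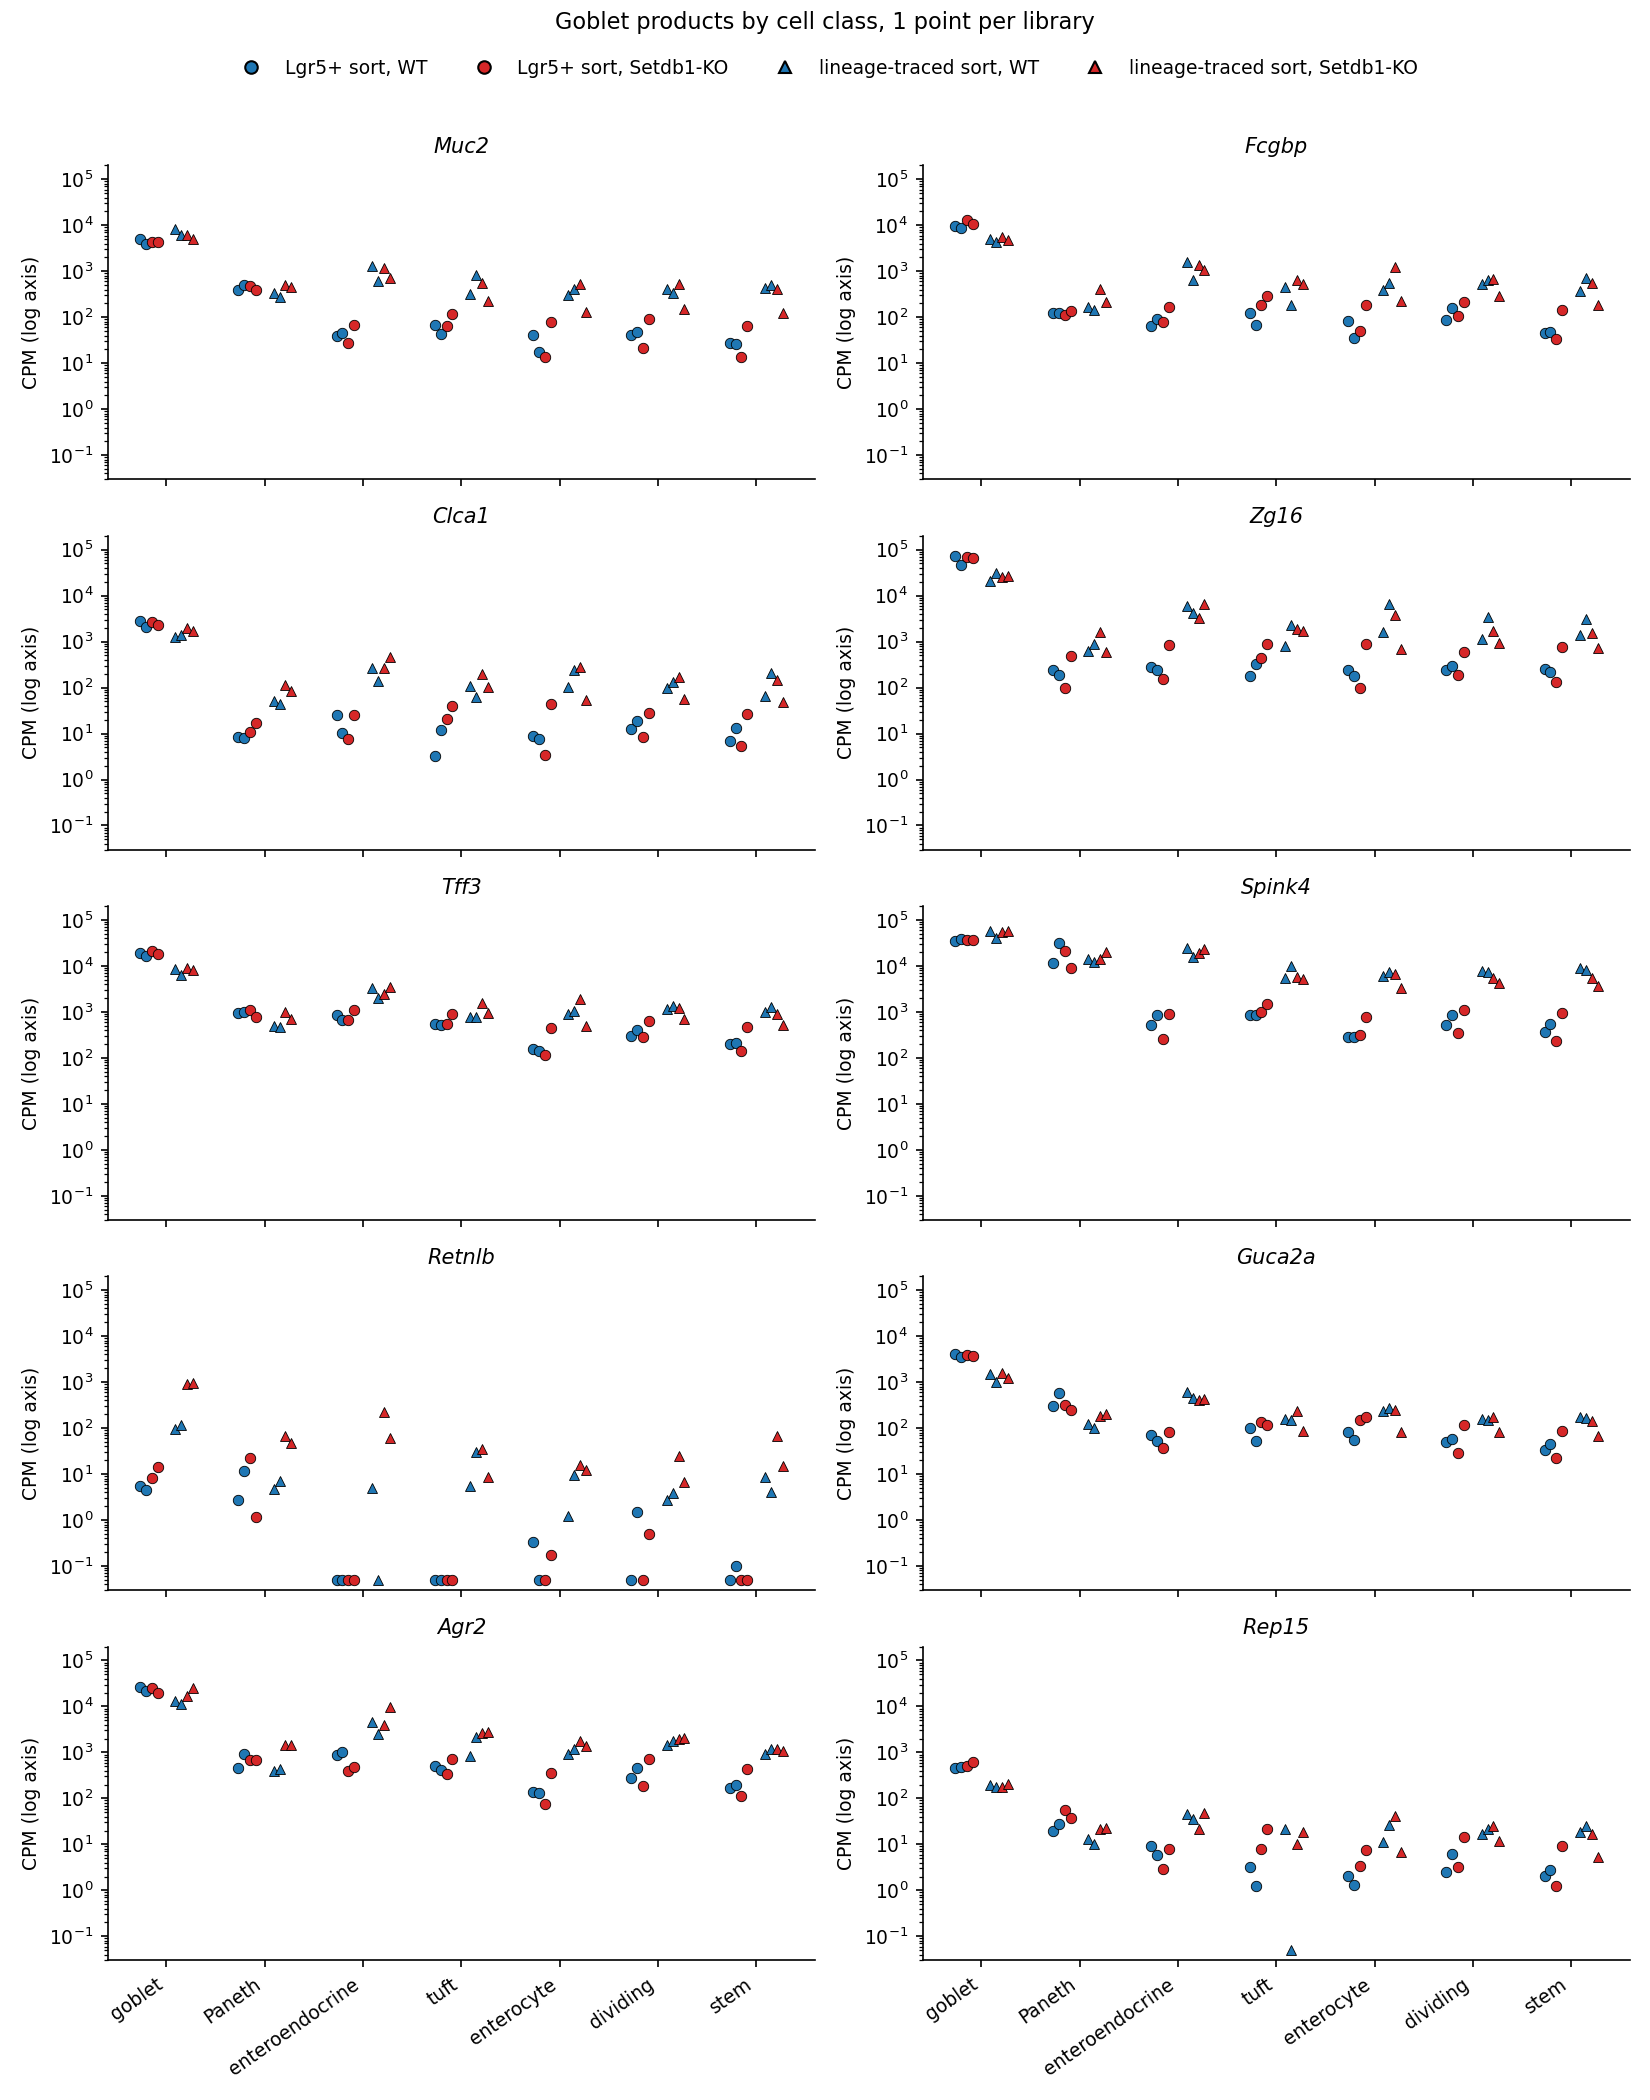
Level of each of the 10 genes (CPM, log axis) in each class of cells, by sort, with a point for each library; points on the lower edge are at 0. Goblet-like cells are highest in every library for all genes except Retnlb in the Lgr5+ sort, where this holds in 2 of 4 libraries.

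Enterocyte-like and Paneth-like cells were then tested against goblet-like cells, while the other classes were compared by their levels only, with no test. For the test UMIs were summed per library and class, with the library as a block (edgeR quasi-likelihood test, Benjamini-Hochberg adjustment over all genes tested). Against enterocyte-like cells all 10 genes were higher in both sorts, where 34.6% of genes tested in the Lgr5+ sort and 11.2% in the lineage-traced sort were called higher. The log2 fold change ran from 5.00 (Guca2a) to 7.82 (Zg16) in the Lgr5+ sort and from 2.69 (Guca2a) to 5.63 (Retnlb) in the lineage-traced sort. Their median was 6.89 and 3.38, beside 0.08 and 0.04 over all genes tested. Against Paneth-like cells, the other granule-secreting class, 8 were higher in the Lgr5+ sort and 9 in the lineage-traced sort, beside 7.83% and 8.73% of all genes. Clca1 and Zg16 differed most in the Lgr5+ sort, by 6.07 and 6.77 (edgeR adjusted p = 1.08e-53 and 1.47e-41). Spink4 was not called in either sort, at -0.03 (SE 0.379) and -0.03 (SE 0.266). These values are relative to the typical gene: TMM scaling lowered goblet-like against Paneth-like values by 1.21 and 1.86 on the log2 scale, and in plain CPM Spink4 was higher in goblet-like cells in all 8 libraries. Retnlb was not called in the Lgr5+ sort (0.38, SE 0.559, edgeR adjusted p = 0.76) and was higher in the lineage-traced sort (2.33, SE 0.164, edgeR adjusted p = 1.17e-20).

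Genes of goblet transcription factors, folding and secretion, and mucin glycosylation were mostly higher than in enterocyte-like cells, while the other lists were more mixed. All 12 goblet transcription factors were higher in the Lgr5+ sort and 10 of 11 tested in the lineage-traced sort, and none was lower. Among them were Spdef (6.85 and 3.84 on the log2 scale) and Creb3l4 (6.38 and 4.15). Of 26 genes of folding and secretion, 25 and 22 were higher, with Qsox1, a sulfhydryl oxidase, at 5.29 and 3.58. Of 19 mucin glycosylation enzymes, 15 and 13 were higher and 2 and 2 lower, among the latter the sialyltransferase St3gal4 (-3.23 and -2.54). Of the other goblet products, 9 were higher and 4 lower of 14 in the Lgr5+ sort, and 6 and 2 of 15 in the lineage-traced sort. Of the genes of type 2 and Notch control, 5 were higher and 2 lower of 9, and 2 higher and none lower of 7. Against Paneth-like cells fewer differed: of the 12 factors, 6 were higher and 2 lower in each sort. Creb3l1 (2.03 and 1.77) and Atoh1 (1.65 and 1.36) were higher and Bhlha15, a factor of cells that store secretory granules, was lower (-2.55 and -2.45). Of the other goblet products, 3 were higher and 5 lower of 14 in the Lgr5+ sort, and 5 and 6 of 15 in the lineage-traced sort, with medians of -0.12 and -0.31. The antimicrobial products Ang4 (-6.23 and -4.46) and Itln1 (-5.60 and -4.87) were lower than in Paneth-like cells, as was Reg4 in the Lgr5+ sort (-3.48), while Mptx1 was higher (4.86 and 4.00). Mucin glycosylation enzymes were 9 higher and 1 lower of 17, and 13 and 2 of 19. Genes of folding and secretion were 17 higher and 1 lower of 26, and 17 and 2 of 26, and those of type 2 and Notch control 2 and 1 of 8, and 0 and 2 of 7. Calls are at an edgeR adjusted p under 0.05, and the median over all genes is given above for enterocyte-like cells and was 0.13 and -0.01 for Paneth-like cells.

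Cell by cell, with every cell thinned to 1000 UMIs in the Lgr5+ sort and 500 in the lineage-traced sort, 99.6 to 100% and 98.7 to 99.1% of goblet-like cells held Spink4. In enterocyte-like cells, which serve as the background, Spink4 was found in 16.7 to 35.4% and 65.7 to 84.4% of cells. Muc2 was found in 87.4 to 92.6% and 76.3 to 85.7% of goblet-like cells, against 0.38 to 4.61% and 8.07 to 23.4% of enterocyte-like cells. In the lineage-traced sort the shares of the 2 classes were thus far apart for Muc2 and closer for Spink4. Zg16 was found in 75.4 to 84.1% of goblet-like cells in the Lgr5+ sort although it was the most abundant of the 10 there, while Tff3, at a lower level, was found in 99.6 to 100%. Without thinning the Zg16 share was 91.1 to 96.4%. Clca1 (58.6 to 66.8%) and Rep15 (35.9 to 45.7%) were found in fewer cells in that sort, and Retnlb in 0.467 to 0.967%. These shares carry counting error only.

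Within goblet-like cells, the comparison of Setdb1KO with WT asks, in the lineage-traced sort, whether loss of Setdb1 in the stem cell changes what its goblet progeny make. Descent is taken there from the sort for GFP and was not checked in single cells. Goblet-like cells held 0 and 0 GFP UMIs in lineage-traced WT and 1 and 0 in lineage-traced Setdb1KO. In the Lgr5+ sort, which gives no such record of descent, the comparison is of the genotypes of the mice. None of the 10 genes was called by edgeR in the Lgr5+ sort, beside 0.474% of the genes tested, and 1 of the 10 (Retnlb) had an unadjusted p under 0.05. DESeq2 called 0. Fcgbp, at 12914 and 10458 CPM in Lgr5+Setdb1KO against 9497 and 8648 in Lgr5+WT, did not overlap between the genotypes (log2 fold change 0.39, SE 0.18, edgeR adjusted p = 0.725). Retnlb did not overlap either, at 8.29 and 14 against 5.41 and 4.43 CPM, with a log2 fold change of 1.27 (SE 0.301, edgeR adjusted p = 0.14). With no filter on low counts it was called (edgeR adjusted p = 0.00181). Its call also turned on the libraries: it passed without Lgr5+WT replicate 1 (edgeR adjusted p = 0.00558), without Lgr5+WT replicate 2 (edgeR adjusted p = 0.0287) and without Lgr5+Setdb1KO replicate 1 (edgeR adjusted p = 3.40e-05). Without Lgr5+Setdb1KO replicate 2 it was 0.76 (edgeR adjusted p = 0.539). In that library 59 of the 131 Retnlb UMIs lay in a single cell. The other 8 lay between -0.06 and 0.28, with standard errors of 0.146 to 0.247. The median of the 10 was 0.13, beside 0.00 over all genes.

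Retnlb rose in Setdb1KO goblet-like cells of the lineage-traced sort. It stood at 93.3 and 114 CPM in lineage-traced WT and at 892 and 957 CPM in lineage-traced Setdb1KO, or 104 ± 14.8 against 924 ± 46.1 CPM (mean ± SD, n = 2). The groups were far apart, and the log2 fold change was 3.07 (SE 0.347, edgeR adjusted p = 1.52e-11). Over all alternatives it lay between 2.79 and 3.31, with adjusted p from edgeR or DESeq2 of at most 0.0029. It was the only gene of the 10 called in the fit of all 4 libraries, beside 2.14% of all genes tested. Agr2, at 16902 and 24586 against 12886 and 11242 CPM, had a log2 fold change of 0.72 (SE 0.342, edgeR adjusted p = 0.607), and of 1.06 without lineage-traced Setdb1KO replicate 1 (edgeR adjusted p = 9.16e-08). Muc2 had the lowest value, at -0.48 (SE 0.33), and its libraries overlapped. The median of the 10 was 0.07, beside 0.01 over all genes. In the same cells, as given above, Paneth markers were several times lower in Setdb1KO, and the 10 enterocyte markers summed to 1276 and 2728 CPM in WT against 326 and 272 CPM. Whether these markers come from free RNA was not tested. The part of free RNA in the Retnlb result was not tested beyond subtracting its expected level, scaled as in enterocyte-like cells. After that the log2 fold change was 3.03 (edgeR adjusted p = 3.63e-05). The cells with goblet and enteroendocrine markers, left out here, held 29.6 and 0 CPM of Retnlb in WT and 2279 and 683 CPM in Setdb1KO. Retnlb was not confined to goblet-like cells: before thinning 124 and 90 kept cells held it in WT and 344 and 510 in Setdb1KO. Of these, 51 and 25, and 74 and 154, were goblet-like. Cells of no class held 48 and 50 Retnlb UMIs in WT (of 4385343 and 3585496) and 355 and 506 in Setdb1KO (of 4439677 and 12069699). Enteroendocrine-like cells held 5.04 and 0 CPM in WT and 223 and 60.9 CPM in Setdb1KO. The differences in these 2 classes were not tested.

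**Figure D2:**
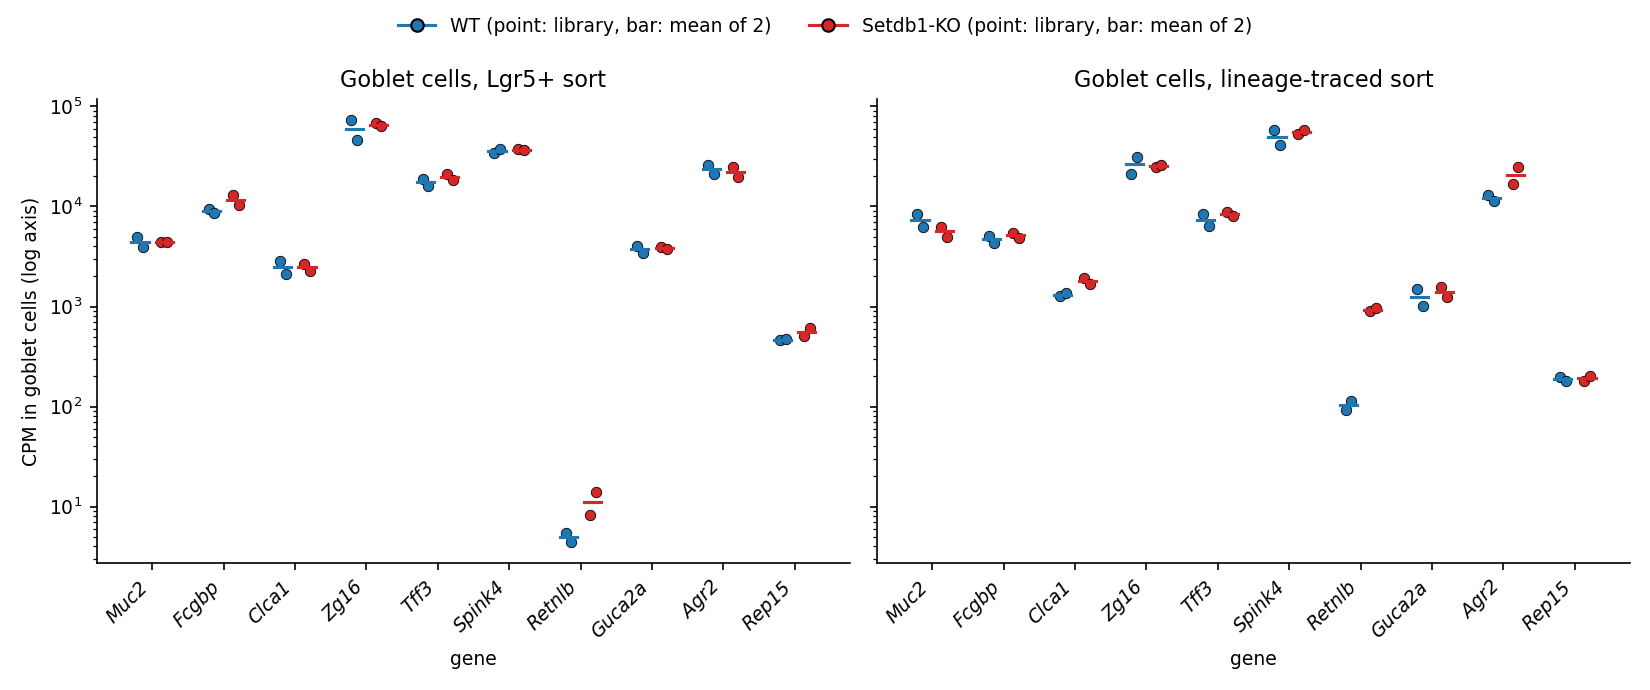
Level of the 10 genes in goblet-like cells (CPM, log axis), with a point for each library and a bar at the mean of the 2 libraries of a group. Retnlb in the lineage-traced sort separates the genotypes, at 93.3 and 114 in WT and 892 and 957 in Setdb1KO.

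The genotype effect on Retnlb was larger in the lineage-traced than in the Lgr5+ sort by 1.84 on the log2 scale (SE 0.436, interaction term over the 8 libraries, edgeR adjusted p = 0.0362), and by DESeq2 the difference had an adjusted p of 0.00692. Of all genes tested, 0.894% were called. The call held without Lgr5+Setdb1KO replicate 2 (edgeR adjusted p = 0.0159) and without lineage-traced Setdb1KO replicate 1 (edgeR adjusted p = 0.0188). It was lost without any 1 of the other 6 libraries, the 4 WT libraries, Lgr5+Setdb1KO replicate 1 and lineage-traced Setdb1KO replicate 2. In those fits, which leave 1 library in a group, the difference was 1.53 to 2.09 on the log2 scale. The test sets goblet-like cells sorted as traced progeny beside goblet-like cells of unknown descent. The sorts differed in depth and in the nTnG reporter as well, so the source of the difference cannot be told apart. None of the other 9 genes was called in this test, and the lowest edgeR adjusted p among them was 0.69 (Agr2).

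Retnlb was found in a minority of goblet-like cells. After thinning, 3.24% (95% Wilson interval 2.24 to 4.67%) and 6.1% (95% Wilson interval 3.73 to 9.82%) of goblet-like cells held a Retnlb UMI in the lineage-traced WT libraries. In lineage-traced Setdb1KO the shares were 12.9% (95% Wilson interval 9.9 to 16.7%) and 10.3% (95% Wilson interval 8.48 to 12.5%). In enterocyte-like cells of these libraries the shares ran from 0 to 2.31%. The intervals carry counting error only, not the random draw of the thinning or the spread between libraries. In lineage-traced WT replicate 2, 15 cells were positive in this draw and 8 to 13 in the other draws described below, so 6.1% is on the high side. Without thinning, 6.12, 10.2, 19.9 and 17.7% of goblet-like cells held it in the lineage-traced sort, WT libraries first. The level in the positive cells was also higher: 2072 and 1580.0 CPM in WT against 5157 and 7256 CPM in Setdb1KO. Of the UMIs, 50% lay in 10 and 3 of the 51 and 25 goblet-like cells that held any before thinning in WT, and in 4 and 18 of 74 and 154 in Setdb1KO. A single cell reached 205 and 162 UMIs in the Setdb1KO libraries and 13 and 30 in WT. Only 5 and 4 goblet-like cells were positive in Lgr5+WT and 5 and 15 in Lgr5+Setdb1KO, or 0.467 to 0.967% of them, against 0 of 263 to 1019 enterocyte-like cells per library, with upper 95% Wilson limits of 0.376 to 1.44%.

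Lineage-traced goblet-like cells with Retnlb held less Zg16, Fcgbp and Tff3 than those without. Which cells count as positive depends on the random draw of the thinning, so the comparison was repeated with 10 other draws, in which 20 to 30 and 8 to 13 cells were positive in WT and 43 to 49 and 85 to 90 in Setdb1KO. In the lineage-traced sort 7 of the other 9 genes were called between Retnlb-positive and Retnlb-negative cells of the same library, beside 3.14% of all genes tested, and their median was -0.72 beside -0.06 over all genes. Zg16 was 5735, 11944, 7075 and 10962 CPM in positive cells (WT replicates 1 and 2, then Setdb1KO replicates 1 and 2) and 21823, 32755, 27897 and 28350.4 CPM in negative cells. Fcgbp was 1541, 1917, 1375 and 1612 CPM against 5249, 4427, 6184 and 5350.4 CPM. Both were lower in positive cells in 4 of 4 libraries, with log2 fold changes of -1.77 (SE 0.0806, edgeR adjusted p = 2.82e-101) and -1.82 (SE 0.102, edgeR adjusted p = 2.06e-67). Tff3 was 3955, 4508, 2072 and 2388 CPM against 8553, 6535, 10009 and 8840.2 CPM, a log2 fold change of -1.56 (SE 0.0939, edgeR adjusted p = 2.08e-58). Muc2 went the other way: it was 16504, 7099, 8778 and 6819 CPM in positive and 8111, 6165, 5815 and 4743 CPM in negative cells. It was higher in positive cells in 4 of 4 libraries, by 0.51 (SE 0.0864, edgeR adjusted p = 9.08e-07), and by 0.20 with a stricter call of goblet-like cells (edgeR adjusted p = 0.572). Over the other draws Zg16 (-2.50 to -1.79), Fcgbp (-2.14 to -1.46) and Tff3 (-1.99 to -1.51) were called in 10 of 10, while Muc2 (0.45 to 0.64) was called in 6 of 10, with an edgeR adjusted p of up to 0.159.

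DESeq2 called 4 of the 9, Zg16, Fcgbp, Tff3 and Muc2. Of the other 3, over the other draws, Clca1 was called in 10 of 10, Guca2a in 7 (-0.78 to -0.44) and Rep15 in 7 (-1.13 to -0.57). Clca1 fell by 0.85 on the log2 scale (edgeR adjusted p = 0.04) but was higher in positive cells of lineage-traced Setdb1KO replicate 2, and without WT replicate 1 the value was -0.49 (edgeR adjusted p = 0.777). Guca2a was at -0.49 (edgeR adjusted p = 0.00195), was higher in positive cells of WT replicate 2, and lost its call without Setdb1KO replicate 1 (-0.39, edgeR adjusted p = 0.361) or replicate 2 (-0.34, edgeR adjusted p = 0.36). Rep15 was lower in 4 of 4 libraries, at -0.72 (edgeR adjusted p = 0.022). It lost its call without WT replicate 1 or either Setdb1KO library (edgeR adjusted p = 0.0732, 0.149 and 0.241). Its value lay between -0.78 and -0.67 without each library. Spink4 (-0.01, SE 0.069) and Agr2 (-0.08, SE 0.0792) were not called. Median depth was close in 3 libraries, while positive cells were deeper in Setdb1KO replicate 2, at 1732, 2208, 1740 and 3526 UMIs in positive and 1791, 2098, 1753 and 2849 in negative cells. The 13 goblet markers summed to 4023, 2886, 3969.8 and 3648 CPM in positive and 3078, 3128, 3085 and 2985 CPM in negative cells, lower in positive cells of WT replicate 2 and higher in the rest. Paneth markers, with none of 10 at 0, summed to 70381, 159153, 13505 and 15786 CPM against 89076, 140368, 18670 and 26501 CPM, and enterocyte markers to 839, 2380.4, 181 and 151 CPM against 1291, 2752, 351 and 289 CPM. Their part in these differences was not tested.

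Of 16 further goblet products tested, 9 were not called between Retnlb-positive and negative cells of the lineage-traced sort, beside 3.14% of all genes called, and the median was -0.09 beside -0.06 over all genes. The 5 higher and 2 lower in positive cells included Mptx1 (1.98), a secreted pentraxin, Reg4 (2.17), a lectin of the regenerating family, and Ang4 (1.24), an antimicrobial ribonuclease, against Lypd8 (-1.23), which binds flagellated bacteria. Of 17 mucin glycosylation enzymes tested, 4 were higher: B3gnt6 (2.64), which builds core structures of O-glycans, Fut2 (1.11), which adds terminal fucose, and Gne (1.06) and Nans (0.61), enzymes of sialic acid synthesis. Of 26 genes of folding and secretion, Hsp90b1 (-0.56) and Pdia6 (-0.59) were lower and none higher. Dll1, the Notch ligand of secretory progenitors, was lower (-1.69), alone among 5 genes of type 2 and Notch control, and none of 10 goblet transcription factors was called. Outside these lists and the 10 genes, the lowest adjusted p were those of Sycn (2.25), Reg3b (1.16) and Oit1 (1.17), which were higher, and Lgals2 (-1.63) and Tm4sf5 (-1.87), which were lower. All of these values are log2 fold changes past an edgeR adjusted p of 0.05. In the 10 other draws the calls held in 10 of 10, except those of Pdia6 (7), Nans (2), Hsp90b1 (1) and Dll1 (1 of 10).

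In the Lgr5+ sort the positive cells number only 4 to 15 per library, and 1 of the 9 genes was called, beside 0.199% of all genes tested. Spink4 was 85242, 59271, 62899.5 and 64242 CPM in positive cells against 34255, 37862, 37079.8 and 36589 CPM in negative cells. It was higher in 4 of 4 libraries, with a log2 fold change of 0.96 (SE 0.136, edgeR adjusted p = 2.87e-09). With at least 2 Retnlb UMIs asked of a positive cell, 1, 0, 0 and 3 cells were left, too few to check it (not called, edgeR adjusted p = 0.0692). In 10 other draws Spink4 was called in 7 (0.23 to 1.31). Zg16 was 76312, 58287, 7014 and 56354 CPM against 72960.3, 45849.8, 68167 and 64435 CPM, and its value of -0.55 (edgeR adjusted p = 0.0778) rests on the low value in Lgr5+Setdb1KO replicate 1, without which it was 0.17 (edgeR adjusted p = 0.928). In the 10 other draws Zg16 was called lower in 10, at -2.89 to -0.68, with 1 to 22 positive cells per library, so the calls of Spink4 and Zg16 both depend on the draw. Fcgbp (0.36, SE 0.15, edgeR adjusted p = 0.894) and Tff3 (0.43, SE 0.143, edgeR adjusted p = 0.491) had the opposite sign to the lineage-traced sort and were not called. Over the other draws they ran from -0.64 to 0.65 (called in 0 of 10) and -0.20 to 0.60 (called in 1). Muc2 (0.32), Guca2a (0.47), Rep15 (0.64), Clca1 (0.03) and Agr2 (-0.31) were not called either, and the difference between the sorts was not tested. Of the 5 gene lists, 2 of 14 other goblet products were called, Itln1 and Reg4, both higher, and no gene of the other 4. Paneth markers summed to 29426, 43175, 51484 and 50157 CPM in these positive cells against 7827, 12847, 10833 and 15929 CPM in negative cells, with at most 2 of the 10 at 0. Among the genes of lowest p, Reg3b (2.93), Itln1 (2.33), Defa24 (2.07) and Defa17 (2.50), which Paneth cells also make, were higher on the log2 scale, and were called in 9 (Itln1) or 10 of the 10 other draws. Spink4 is the gene among the 10 that Paneth-like cells also held at high level. The part of Paneth RNA in the Spink4 difference was not tested.

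**Figure D3:**
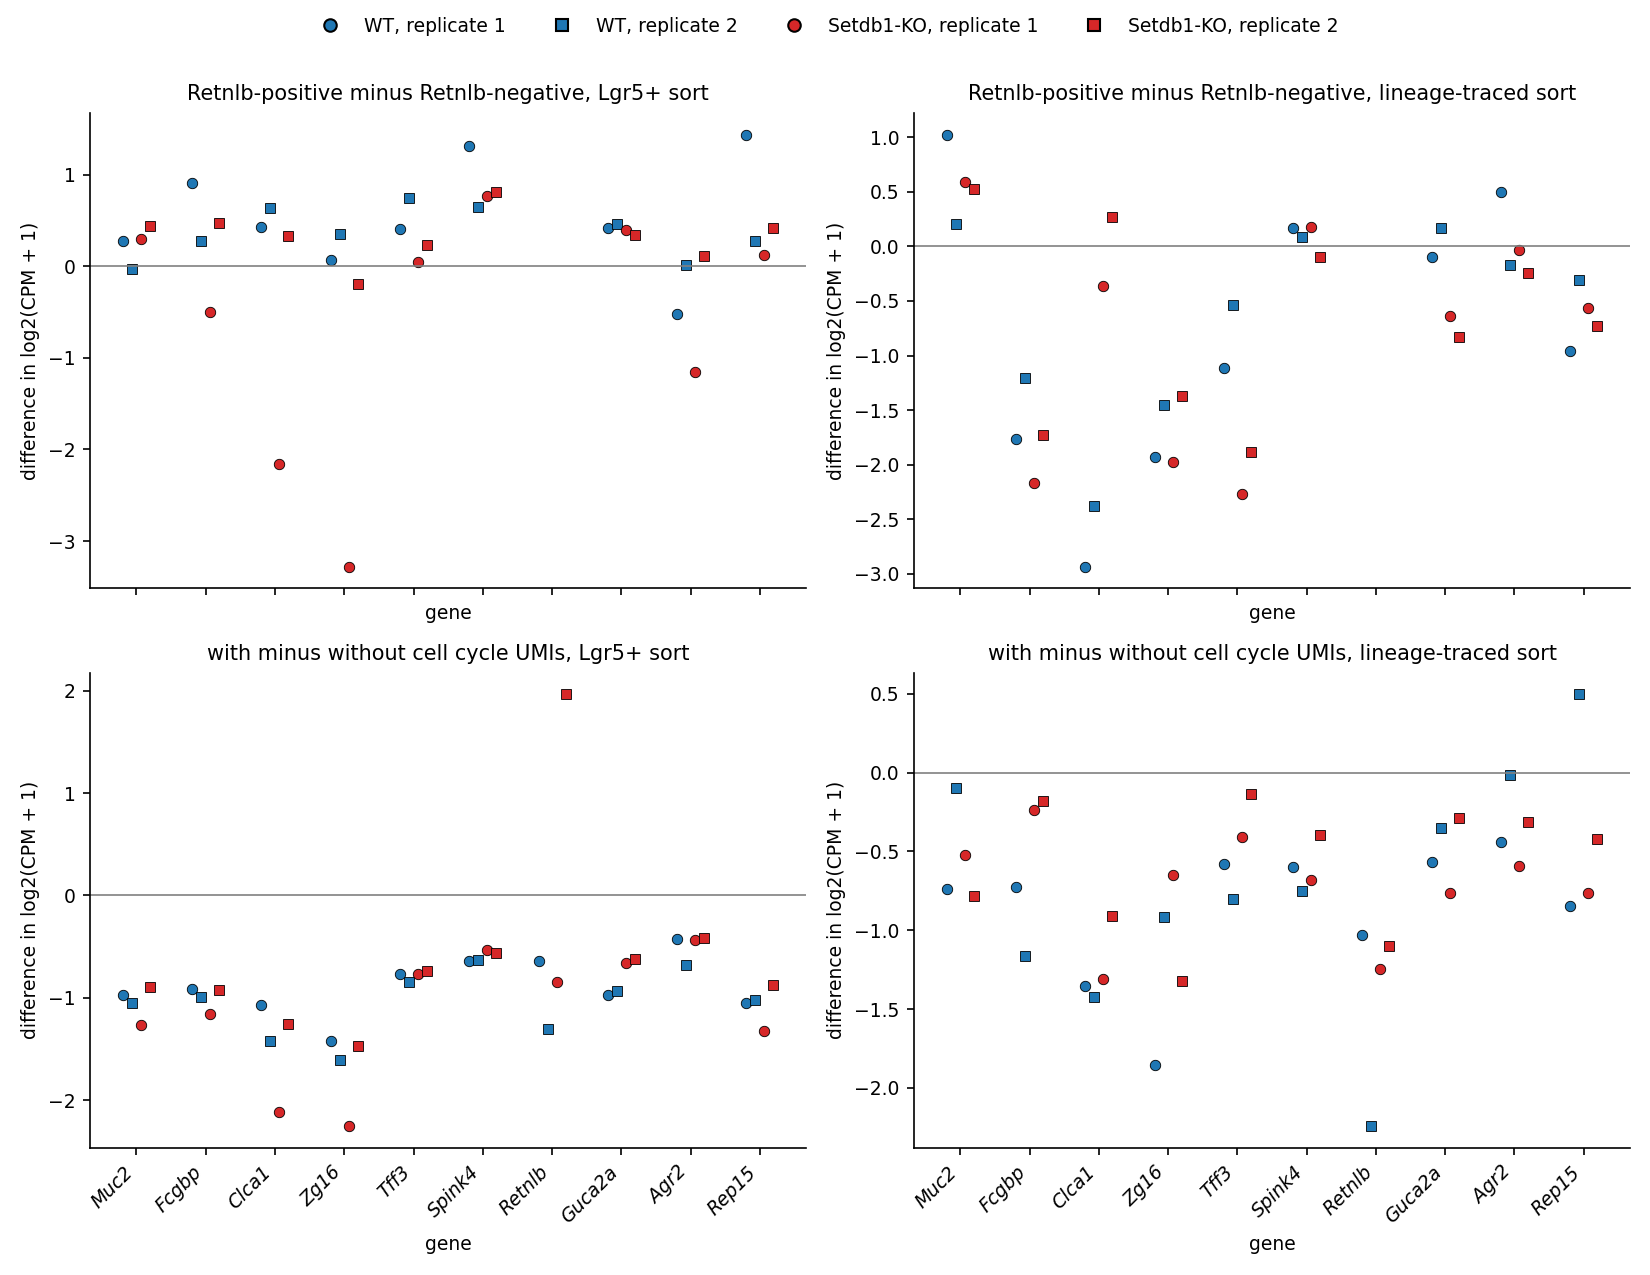
Difference of the 10 genes between parts of the goblet-like cells of the same library, in log2(CPM + 1), with a point for each library; upper panels, Retnlb-positive minus Retnlb-negative cells, lower panels, cells with minus cells without cell cycle UMIs, for the thinning draw whose CPM are given. In the lineage-traced sort Zg16, Fcgbp and Tff3 lie below 0 and Muc2 above 0 in 4 of 4 libraries of the upper panel.

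Goblet-like cells with UMIs of cell cycle genes held less of most of these products. Cells with at least 1 UMI of 10 cell cycle genes after thinning were 183, 200, 104 and 439 cells per library in the Lgr5+ sort and 117, 37, 89 and 105 in the lineage-traced sort. By edgeR, 9 of the 10 genes were lower in them in the Lgr5+ sort, beside 17.6% of all genes tested, and in the lineage-traced sort all 10, beside 3.32%. Cells with and without these UMIs are not shown to be cycling and resting cells. In the Lgr5+ sort 23, 23.3, 20.1 and 23.4% of goblet-like cells held at least 1, against 13.6, 14.2, 7.6 and 12.8% of enterocyte-like cells thinned to the same depth. Lineage-traced shares were 14, 15, 24 and 12.1% against 8.41, 8.8, 29.9 and 12.7%, so in both lineage-traced Setdb1KO libraries goblet-like cells stood no higher than enterocyte-like cells. Enterocyte-like cells held cell cycle RNA as well, at 492 and 517 CPM in these libraries, where free RNA was expected to give 60.3 and 38.2 CPM. Median depths before thinning were 4278 to 8405 and 5114 to 11386 UMIs (goblet-like and enterocyte-like, Lgr5+ sort) and 1753 to 2900 and 851 to 2655 UMIs (lineage-traced sort). The 10 cell cycle genes summed to 565 to 731 and 417 to 687 CPM in goblet-like cells of the sorts. Free RNA, scaled as in enterocyte-like cells, was expected to give 8.46 to 20.3 and 38.2 to 93.1 CPM there. With at least 2 of these UMIs asked for, edgeR called 10 of the 10 lower in the Lgr5+ sort and 9 in the lineage-traced sort, where Rep15 was not called. In 10 other draws of the thinning the same 9 genes of the Lgr5+ sort were each called lower in 10 of 10, and in the lineage-traced sort all but Rep15 (9 of 10).

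Zg16 was 33019, 18959, 17366 and 28746 CPM in cells with cell cycle UMIs and 88799, 57703, 83048 and 79624 CPM in other goblet-like cells of the Lgr5+ sort, Lgr5+WT first. The largest changes were those of Zg16, at -1.87 and -1.33 on the log2 scale in the Lgr5+ and lineage-traced sorts, and of Clca1, at -1.62 and -1.37. Muc2 was at -1.23 and -0.69. The smallest change among the genes called was that of Agr2, at -0.68 and -0.49. The median of the 10 was -1.08 and -0.70, beside -0.02 and 0.01 over all genes.

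Of 26 genes of folding and secretion, 24 were lower in the cells with cell cycle UMIs of the Lgr5+ sort, beside 17.6% of all genes, with Hspa5, the main chaperone of the endoplasmic reticulum, at -0.54, and in the lineage-traced sort 7 were lower, beside 3.32% of all genes, and 19 were not called. Of 12 goblet transcription factors 8 were lower in the Lgr5+ sort, among them Klf4 (-0.57) and Creb3l4 (-0.64). None of 10 tested was called in the lineage-traced sort, where edgeR called fewer genes in all. Mucin glycosylation enzymes were lower in 11 of 17 and 4 of 16, Lgr5+ sort first. Of the other goblet products 9 were lower and 1 higher of 14, and 8 lower of 14. Of the genes of type 2 and Notch control 4 were lower and 1 higher of 8, and none of 5 was called in the lineage-traced sort. Retnlb was the exception among the 10 genes in the Lgr5+ sort, at 0.65 (edgeR adjusted p = 0.114), and its direction rests on Lgr5+Setdb1KO replicate 2, without which it was -1.28 (edgeR adjusted p = 0.00863). It also turned on the draw: in 2 of the 10 other draws it was above 0 and in the other 8 below 0, over a range of -1.68 to 1.13. It was called in 9 of the 10, in all 8 below 0 and in 1 above 0. With at least 2 cell cycle UMIs asked for it was -1.17 (edgeR adjusted p = 0.0234). Lineage-traced Retnlb fell by 1.32 (edgeR adjusted p = 1.99e-11). Rep15 was higher in the cells with these UMIs in lineage-traced WT replicate 2, at 236 against 167 CPM, and lost its call there without WT replicate 1 or either Setdb1KO library (edgeR adjusted p = 0.168, 0.0893 and 0.0899). Cells with cell cycle UMIs were deeper in every library, with medians of 5862 to 10708 UMIs against 4021 to 8102 in the Lgr5+ sort. The 13 goblet markers were also lower in them in 7 of 8 libraries, at 2739, 2304, 2485 and 2554 CPM against 4491, 3791, 4070.0 and 3852 CPM in the Lgr5+ sort.

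In stem-like cells, which were chosen by 8 stem markers and numbered 818 to 2621 per library in the Lgr5+ sort, the 10 genes were low, and free RNA from empty droplets was expected to give much of what was measured. Muc2 stood at 27.9 and 26.5 CPM in the Lgr5+WT libraries and 13.9 and 63.6 CPM in the Lgr5+Setdb1KO libraries, where, in the same order, free RNA was expected to give 16.2, 17.1, 13.5 and 25.3 CPM. Spink4 stood at 357 and 534 CPM in the Lgr5+WT libraries and 232 and 935 CPM in the Lgr5+Setdb1KO libraries, with 282, 289, 221 and 397 CPM expected. Over the 9 genes other than Retnlb, the median ratio of measured to expected was 0.926, 1.54, 0.959 and 2.36 in these libraries, so Lgr5+Setdb1KO replicate 2 stood above the rest. None was called between the genotypes by edgeR, beside 1.74% of all genes tested, with 1 of 9 at an unadjusted p under 0.05 (Fcgbp) and 0 by DESeq2, and Retnlb was too low to be tested. The values depended on the Setdb1KO libraries, and without each library in turn they crossed 0 for all 9 genes. Spink4 was 1.12 without Lgr5+Setdb1KO replicate 1 and -0.90 without replicate 2, so no direction can be given.

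Among lineage-traced stem-like cells edgeR called 3 of the 10 genes between the genotypes, beside 1.97% of all genes. Retnlb was higher in Setdb1KO, by 2.15 (SE 0.472, edgeR adjusted p = 5.52e-04), on 10 and 2 UMIs in WT and 56 and 37 in Setdb1KO. In CPM it was 8.5 and 4.13 CPM in the lineage-traced WT libraries and 66.8 and 15 CPM in the lineage-traced Setdb1KO libraries, with 13.2, 7.17, 12.7 and 13.1 CPM expected from free RNA. Setdb1KO replicate 1 alone was well above that level, and without it the value was 1.04 (edgeR adjusted p = 0.322), and without WT replicate 1 the adjusted p was 0.0521 (edgeR). Spink4 was 9027 and 8334 CPM in the lineage-traced WT libraries and 5336 and 3705 CPM in the lineage-traced Setdb1KO libraries, with 4637, 6821, 2373 and 1919 CPM expected, and was called lower in Setdb1KO (-1.12, edgeR adjusted p = 0.0269). With the expected free RNA subtracted it was -0.56 (edgeR adjusted p = 0.998). It was not called without WT replicate 1 or 2, while its value lay between -1.26 and -0.96 without each library. Zg16 was also called lower (-1.21, edgeR adjusted p = 0.0131). Its call was lost with free RNA subtracted (edgeR adjusted p = 0.21) and without WT replicate 1, WT replicate 2 or Setdb1KO replicate 2 (edgeR adjusted p = 0.186, 0.999 and 0.074).

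**Figure D4:**
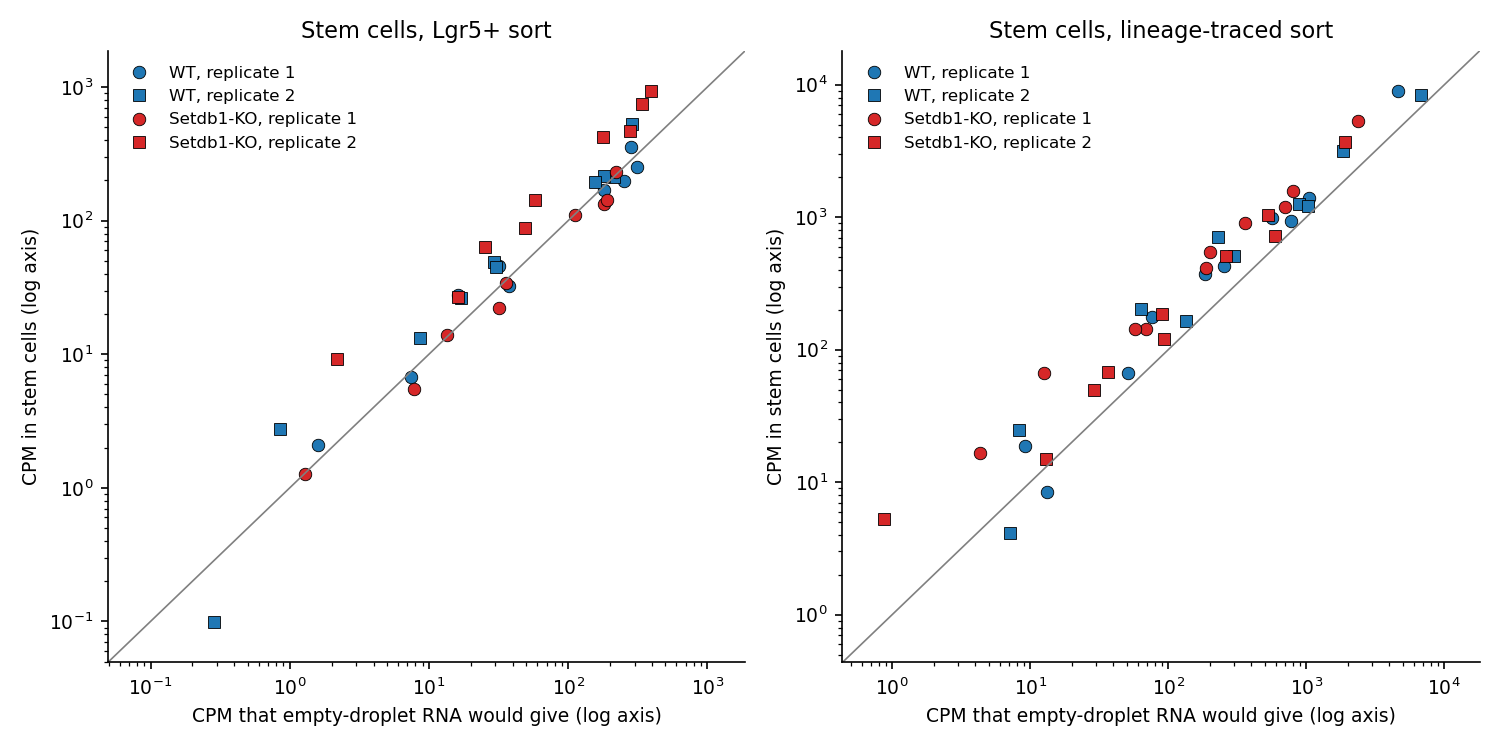
Level of the 10 genes in stem-like cells of each library (vertical axis, CPM) against the level expected from RNA of empty droplets (horizontal axis), both on log axes, with equality on the diagonal; values at 0 are not drawn. The median ratio of measured to expected over 9 genes was 0.926, 1.54, 0.959 and 2.36 in the Lgr5+ sort and 1.73, 1.7, 2.25 and 1.93 in the lineage-traced sort.

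Of the 5 gene lists, that of further goblet products had 8 of 15 genes called between the genotypes in lineage-traced goblet-like cells, beside 2.14% of all genes. It also holds genes that were higher in enterocyte-like or Paneth-like cells, so this count is not one of goblet genes alone. The other 4 lists held no call. In both sorts none of 12 goblet transcription factors, 26 genes of folding and secretion, the mucin glycosylation enzymes (18 and 19 tested) or the genes of type 2 and Notch control (9 and 7 tested) was called by edgeR. Their median log2 fold changes ran from -0.21 to 0.42. Of the further goblet products, Ang4 fell by 1.90 in the Lgr5+ sort (edgeR adjusted p = 0.00897), alone among 14 tested. Of 15 tested in the lineage-traced sort, 3 were higher and 5 lower. Tff2, a trefoil peptide, and Mptx1 were higher, by 3.51 and 2.87 (edgeR adjusted p = 1.61e-12 and 3.25e-10). Muc3, a membrane mucin of enterocytes, and Clca4a were lower, at -2.93 and -3.72 (edgeR adjusted p = 4.80e-09 and 4.39e-07). Both were also lower in goblet-like than in enterocyte-like cells of that sort, at -3.08 and -3.96. In that comparison the lower genes of least adjusted p included the enterocyte products Apoa1 (-5.32), Apoa4 (-5.30) and Cyp3a11 (-10.41), and the Paneth marker Mptx2 (-3.63). Apoa1, Apoa4 and Mptx2 are themselves part of the enterocyte and Paneth marker sums given above, while Cyp3a11 is not.

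Across 28 sums of class and library per sort, the genes outside the marker lists whose level followed the mean of the 10 most closely were, in the Lgr5+ sort, Spats2l (0.963), Atoh1 (0.96), Spdef (0.956), Sytl2 (0.954), Kdelr3 (0.952), Gcnt3 (0.948), Fer1l6 (0.939) and Creb3l4 (0.937), with Pearson r of log2(CPM + 10) in brackets, and in the lineage-traced sort Gcnt3 (0.95), Creb3l1 (0.937), Gfpt1 (0.933), Galnt7 (0.931), Atoh1 (0.925), Txndc5 (0.92), C1galt1 (0.917) and Tmed3 (0.912). Atoh1 and Gcnt3, which encodes the enzyme for branched core O-glycans, stood in both. Only genes that reached 50 CPM in a class were ranked, and some reached it in goblet-like cells alone. Fer1l6 stood at 58 CPM there and at 1.07 CPM in its next class in the Lgr5+ sort. The sums share libraries and cells of very different composition, so these values are a description only. Each of the 10 genes followed their own mean with r of 0.85 to 0.986 in the Lgr5+ sort, except Retnlb at 0.651, and of 0.84 to 0.974 in the lineage-traced sort, except Retnlb at 0.733. Each gene is part of that mean, so a high r follows in part from the way it was computed.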

How the data were processed

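Droplet single-cell 3′ RNA-seq of 8 libraries (4 groups of 2) was analysed. The authors deposited raw gene by barcode matrices of UMI counts, not normalized, and the submitters' processing notes name Cell Ranger 6.1.1, Seurat 5.0.3 and mm10. The 10 genes and the gene lists were chosen with earlier results of these data known. Total depth was 16881518 to 81876035 UMIs per library. Cells were kept from 1000 UMIs (Lgr5+ sort) or 500 UMIs (lineage-traced sort) up to 18000, if mitochondrial genes gave less than 5% of them. The upper limit on UMIs and the mitochondrial limit are those of the study's methods, and the lower limits on UMIs were set here. The study's limit of 200 to 4000 genes per cell was tried only as an alternative. Classes were called from marker lists against empty droplets (10 to 100 UMIs), with at least 3 marker UMIs at 3 times the empty share, or for Paneth markers 10 percentage points above it. Cells with 2 differentiated classes were left out in place of a doublet caller, and the names are rebuilt, not the authors'.

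UMIs were summed per library and class and tested with edgeR 4.0.16 (filterByExpr, TMM, quasi-likelihood test) in R 4.3.3, each sort on its own, with genotype as the only term, or with the library as a block for 2 sums of the same library. A call is a Benjamini-Hochberg adjusted p under 0.05 over all genes tested. In the comparison by Retnlb, TMM factors came from genes with at least 10 UMIs on each side, a change from the plan made on simulated data. The expected level from free RNA is the empty-droplet profile, scaled by the Paneth marker share of a class over that of empty droplets. Stem-like cells were scaled by their own share. Goblet-like cells were scaled by the share of enterocyte-like cells. Their own Paneth marker share was higher in every library, at 14.2 against 10.1% of UMIs in lineage-traced WT replicate 2. Their expected level would be higher on their own share. Python 3.11.15, numpy 2.4.6, pandas 2.3.3, scipy 1.17.1 and matplotlib 3.10.9 were used. Steps were tested on simulated data. Named genes were the 10, at most 4 of each list and at most 5 per direction outside the lists by smallest adjusted p, and the 8 most alike. Alternatives were DESeq2 1.42.0, no filter, a higher depth minimum, a 10% mitochondrial limit, a stricter marker call (6 UMIs), free RNA subtracted, other Retnlb status rules, the replicate block, and leaving out each library. Keeping cells of a second class and leaving Sct out of the enteroendocrine markers, asking for at least 2 cell cycle UMIs, the limit on genes per cell and 10 other draws of the random thinning were added after seeing the data. The higher depth minimum and the 10% mitochondrial limit also drew the thinning anew. Nothing says how many mice a library pools, so p-values of the fits refer to libraries and not to mice. The quasi-likelihood test shares estimates of spread across genes, and the SE given was derived from its p-value. Neither is a gene's own spread between libraries, which the values per library show. Bulk RNA, chromatin and scATAC samples were not analysed here.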

Additional observations from a re-analysis of the deposited data

Results flagged for a closer look

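The Setdb1KO effect on Retnlb in goblet-like cells differed between the sorts by the test of the interaction: it was 3.07 on the log2 scale in the lineage-traced sort and 1.27 in the Lgr5+ sort, a difference of 1.84 (SE 0.436, edgeR adjusted p = 0.0362). The difference was not called on leaving out any 1 of 6 of the 8 libraries, where it was 1.53 to 2.09. The effect in the Lgr5+ sort was not called on its own (edgeR adjusted p = 0.14) and was 0.76 without Lgr5+Setdb1KO replicate 2, where 59 of 131 Retnlb UMIs lay in a single cell. All 4 Setdb1KO libraries lay above the WT libraries of their sort. With 2 libraries a group such a separation reaches only 0.33 in an exact two-sided permutation test. The share of all genes that separate was not counted. The sorts also differed in the nTnG reporter and in depth. Goblet-like cells were sorted as traced progeny in the lineage-traced sort, with descent not checked in single cells. They were of unknown descent in the Lgr5+ sort. These differences cannot be told apart here.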

How the results depend on the processing

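Of 127 tests of a single gene among the 10, 69 passed the threshold, and of their 1003 alternative values 943 kept their call, 60 lost it and 0 changed sign. The genotype effect on Retnlb in lineage-traced goblet-like cells was called in every alternative run. The number of the 10 called between genotypes in Lgr5+ goblet-like cells was 0, and 1 with no filter and 0 to 1 without each library. In Lgr5+ stem-like cells it was 0, and 9 with no filter and 0 to 9 without each library. For Retnlb-positive against negative Lgr5+ cells it was 1, and 2 with no filter, 6 with a higher depth minimum, 2 with the 10% mitochondrial limit, 3 with the stricter marker call, 2 without thinning, 0 with at least 2 Retnlb UMIs, 1 to 5 over 10 other draws of the thinning (2 in 5 draws, 3 in 1 and 5 in 1) and 1 to 3 without each library. In the lineage-traced sort, goblet-like cells had 1, and 1 to 2 without each library. Lineage-traced stem-like cells had 3, and 1 by DESeq2, 1 with no filter, 8 with a higher depth minimum, 0 with the stricter marker call, 1 with free RNA subtracted and 0 to 8 without each library. The comparison by Retnlb there had 7, and 4 by DESeq2 and 4 to 7 over the other draws. The limit on genes per cell, which takes 1 goblet-like cell each from Lgr5+WT replicate 1 and lineage-traced WT replicate 1, moved none of these counts by more than 1.5 times. The difference between the sorts had 1, and 0 to 1 without each library. Free RNA, scaled as in enterocyte-like cells, was also subtracted from goblet-like cells. The summed level of the 10 was then 138061 CPM in lineage-traced WT and 133788 CPM in lineage-traced Setdb1KO, from 110437 and 125364 CPM. The cause of these changes was not tested.

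Over all 127 tests 112 of 1830 alternative values had the other sign, none of them from a test past the threshold, and 18 of the 112 passed it with that sign. These were Agr2 in lineage-traced stem-like cells with free RNA subtracted (1.31, from -0.11), and Retnlb by cell cycle UMIs in Lgr5+ goblet-like cells with a higher depth minimum (-0.76), the 10% mitochondrial limit (-1.36), at least 2 cell cycle UMIs (-1.17), 8 other draws of the thinning (-0.89, -1.27, -0.86, -1.06, -1.05, -1.68, -1.42 and -0.99) and without each library (-1.28 to 0.94). The others were in Lgr5+ stem-like cells, where the values without each library crossed 0 for all 9 genes tested. They ran from -0.67 to 1.28 (Agr2), -0.78 to 1.22 (Guca2a), -0.92 to 1.29 (Muc2), -0.90 to 1.12 (Spink4) and -0.75 to 1.76 (Zg16), and, with the other sign not past the threshold, from -0.84 to 1.46 (Clca1), -0.43 to 1.67 (Fcgbp), -0.89 to 1.97 (Rep15) and -0.49 to 1.24 (Tff3).

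The replicate numbers are not said to pair mice. Replicate 1 deviations of the genotypes had r = 0.238 and 0.294 in goblet-like cells of the 2 sorts. With the replicate block the number of the 10 called was 2 in Lgr5+ goblet-like cells (Retnlb, edgeR adjusted p = 0.023, and Fcgbp, edgeR adjusted p = 0.0422), 6 in Lgr5+ stem-like cells, 1 in lineage-traced goblet-like cells and 3 in lineage-traced stem-like cells, where Muc2 and Guca2a were called and Spink4 and Zg16 were not.

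Counts over all genes moved by more than 1.5 times as well. Between genotypes, Lgr5+ goblet-like cells had 50 calls, 185 with no filter, 114 with the stricter marker call and 226 with the replicate block, and Lgr5+ stem-like cells had 197, 123 by DESeq2, 717 with no filter, 373 with the stricter call and 868 with the block. Lineage-traced goblet-like cells had 165, 89 by DESeq2, 68 with the stricter call and 55 with free RNA subtracted, and stem-like cells 134, 74, 42 and 58. By Retnlb, the counts were 18 in the Lgr5+ sort, 10 by DESeq2, 38 without thinning, 3 with at least 2 UMIs and 10 to 31 over the other draws, and 176 in the lineage-traced sort, 42 by DESeq2, 63 with the stricter call, 111 to 168 over the other draws, 52 without Setdb1KO replicate 1 and 74 without replicate 2. Against Paneth-like cells edgeR called 1222 and 1174 genes and DESeq2 618 and 471. By cell cycle UMIs the lineage-traced sort had 418 calls, 173 by DESeq2 and 138 with the stricter call, and the Lgr5+ sort 3582, 1836 and 2172. Without each library the counts between genotypes ran from 164 to 182 and 71 to 586 (Lgr5+ goblet-like and stem-like), 99 to 188 and 60 to 261 (lineage-traced), and for the difference between the sorts from 53 to 115, beside 95. By Retnlb they ran from 14 to 19 (Lgr5+) and 52 to 231 (lineage-traced). Against Paneth-like cells they ran from 690 to 1173 in the Lgr5+ sort, at 690 and 795 without WT replicates 1 and 2 and 739 without Setdb1KO replicate 2, and from 709 to 1242 in the lineage-traced sort, lowest without WT replicate 1. Against lineage-traced enterocyte-like cells they ran from 1131 to 2077, beside 2066, lowest without WT replicate 1, and by cell cycle UMIs there from 276 to 456, lowest without WT replicate 1 or Setdb1KO replicate 2. Apart from Paneth-like cells, TMM moved the median gene by at most 0.187 on the log2 scale. Depth limits what can be said of Retnlb in the Lgr5+ sort, with 26 to 131 UMIs in goblet-like cells per library, and of Retnlb in stem-like cells.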
